A study of Mus musculus with 6 samples.

Results

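The interferon-stimulated genes (ISGs) described here are 47 genes, taken by symbol from the 54429 genes of the count table, that cells switch on when they sense interferon. They were followed in primary aortic endothelial cells (EC) of adult, wild-type C57BL/6 mice that carried either a lentiviral vector overexpressing Meis1, a homeodomain transcription factor of blood and endothelial development, together with yellow fluorescent protein (Meis1-OE), or the matching vector with the fluorescent protein alone (YFP-CTRL). The EC were purchased, plated at 100000 cells per well and transduced for 48 h, and at 72 h the cells with YFP, CD31 and VEC on flow cytometry were sorted, grown again to confluency and harvested, with total RNA of 300000 cells used for ribodepleted RNA-seq. Each condition had 3 libraries, named A, B and C as in the count table, and both conditions went through transduction and sorting. No library of untransduced EC was analysed here, so the values compare 2 transduced populations and give no level without a vector. The 47 genes were set in 5 groups by what their products do, with 6 sensors of foreign RNA or DNA, 6 genes of the 2′-5′-oligoadenylate synthetase (OAS) family, 14 further effectors, 9 interferon-inducible GTPases and 12 regulators.

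Type I interferons bind the receptor pair Ifnar1 and Ifnar2, which activates the kinases Jak1 and Tyk2. A complex that holds Stat2 and Irf9 then binds the interferon-stimulated response element (ISRE) in the promoters of ISGs. Type II interferon acts through Ifngr1 and Ifngr2, Jak1 and Jak2, and many of its target genes carry the gamma-activated site (GAS). Endothelial cells respond to both types, and some ISGs are also expressed at a low tonic level without infection.

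Promoter stretches are shown first, because the ISRE is the sequence that many of these genes have in common. Windows of 250 bases before to 50 bases after the gene start (RefSeq, mouse build GRCm38.p6, the primary assembly of mm10) were available for 36 of the 47 ISGs and for 27025 genes in all, and were searched on both strands. The ISRE core GAAANNGAAA was present in 20 of the 36 ISGs (55.6%), against 3.99% of all genes with a window. It was present in 6 of 6 GTPases, 3 of 4 sensors, 3 of 5 OAS genes, 5 of 12 effectors and 3 of 9 regulators. In the stretches below, capitals mark the ISRE core on either strand. The first 3 genes were higher in Meis1-OE EC, as described further on, and Isg15 and Irgm1 were not called. Each is written 5′ to 3′ on the strand of its gene, and the match lies 18 bases after the start in Eif2ak2, and 222 bases before it in Stat2, 34 in Igtp, 78 to 66 in Isg15 (3 matches) and 30 and 24 in Irgm1 (2 matches).
Eif2ak2, minus strand, chr17:78882535-78882564: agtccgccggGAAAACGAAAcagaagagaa
Stat2, plus strand, chr10:128270248-128270315: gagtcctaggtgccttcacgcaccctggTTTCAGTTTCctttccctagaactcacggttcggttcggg
Igtp, plus strand, chr11:58199492-58199555: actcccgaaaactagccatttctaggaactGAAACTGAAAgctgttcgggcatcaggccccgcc
Isg15, minus strand, chr4:156200845-156200926: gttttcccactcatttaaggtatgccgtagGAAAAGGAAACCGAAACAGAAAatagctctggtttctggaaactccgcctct
Irgm1, minus strand, chr11:48871421-48871480: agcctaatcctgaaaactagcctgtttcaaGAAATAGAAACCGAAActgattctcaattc
The core was found in 3 of the 5 ISGs with a window that were higher in Meis1-OE EC and in 17 of the 31 that were not called. The GAS letters TTCNNNGAA were present in 10 of the 36 ISGs (27.8%), against 9.55% of all genes. The letters TGACAG, a core bound by Meis proteins, were present in 5 of the 36 ISGs (13.9%), against 21.6% of all genes, and those 5 were Gbp3, Ifit1, Lgals3bp, Oas3 and Xaf1. They were in 2 of the 5 ISGs with a window that were higher in Meis1-OE EC (Lgals3bp and Xaf1) and in 3 of the 31 not called. This split rests on few genes and was not tested. A match describes these letters in this window and shows no binding.

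Libraries held between 34176642 and 47956605 counts, and a floor of 3 counts corresponded to 0.0648 to 0.0883 CPM (counts scaled to a common library size by TMM). Meis1 itself had at least 135325 counts in each Meis1-OE library and at most 85 in each YFP-CTRL library, so the labels matched the vector. Endothelial markers were abundant in all libraries, with a summed level of 10 genes of 3660 to 4530 CPM in Meis1-OE and 4610 to 6400 CPM in YFP-CTRL. Single markers moved both ways. Cldn5 was higher in Meis1-OE (log2 fold change 1.81, adjusted p = 0.0398 from edgeR) and Tek lower (-0.78, adjusted p = 0.0351 from edgeR). The others were not called, among them Kdr (-1.23, adjusted p = 0.0504 from edgeR). Of 10 macrophage markers, 5 (C1qa, C1qb, C1qc, Tyrobp and Adgre1) were at 0 in every library, and the list summed to 69.8 to 106 CPM in Meis1-OE and 65.1 to 140 CPM in YFP-CTRL, nearly all of it Cd68. Lyz2 had 6, 40 and 37 counts in Meis1-OE against 8, 8 and 7 in YFP-CTRL, and Csf1r 15, 26 and 18 against 1, 4 and 12. Both had a log2 fold change of 1.63 and were not called (adjusted p = 0.181 and 0.148 from edgeR). Ptprc and Fcer1g had at most 4 counts in any library. Of 5 markers of plasmacytoid dendritic cells, the main interferon producers of blood, Siglech was at 0 throughout, and the list summed to 1.42 to 2.58 CPM in Meis1-OE and 0.484 to 1 CPM in YFP-CTRL. Most of the Meis1-OE sum was Ly6d, with 51, 100 and 92 counts against 0 in each YFP-CTRL library, while Ccr9 had 14, 13 and 18 against 18, 9 and 21 and Cox6a2 0, 4 and 4 against 13, 32 and 1. All 7 T and NK cell markers were at or under the floor, with Cd3d, Cd3g, Nkg7 and Ncr1 at 0. Of 10 mesenchymal markers, Lum was at 0 and the list summed to 15.8 to 17.8 CPM in Meis1-OE and 34.9 to 54.2 CPM in YFP-CTRL. Pdgfra made up most of the sum, with 543, 535 and 544 counts against 1130, 2005 and 707, except in YFP-CTRL library C, where Acta2 (902 counts) was higher still. Pdgfrb went the other way (log2 fold change 0.55, adjusted p = 0.344 from edgeR). A part of other cells in the ISG values was not tested. The 3 Meis1-OE libraries resembled each other more closely (Pearson's r across genes of 0.994 to 0.998) than the 3 YFP-CTRL libraries did (0.967 to 0.987).

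Meis1-OE EC carried more RNA of 8 ISGs, drawn from every group: the sensors Dhx58 and Eif2ak2, the antiviral enzyme Oas2, the effectors Xaf1 and Lgals3bp, the GTPase Igtp, and the signalling genes Stat2 and Parp9. Fold changes ran from 1.90 for Eif2ak2 to 3.51 for Lgals3bp, apart from Oas2, whose ratio of 23.2 rests on 2 counts in YFP-CTRL. No ISG was lower at an adjusted p under 0.05. Among the 45 ISGs tested, 8 (17.8%) were called higher by edgeR (quasi-likelihood test, p adjusted by Benjamini-Hochberg over all 16065 genes), against 4.14% of all genes, and 0 were called lower, against 2.73% of all genes. At an unadjusted p under 0.05, 22 of the 45 ISGs were higher and 1 (Trim25) was lower, as were 2050 and 2155 of all 16065 genes. DESeq2 called 20 ISGs higher, against 6.21% of all its genes, and Trim25 lower. The 8 were among the 20. The log2 fold change was positive for 39 of the 45 (86.7%), against 50.9% of all genes, and its median was 0.90 over the ISGs and 0.01 over all genes. With library totals in place of TMM, the median of all genes moved to 0.15 and that of the ISGs to 1.02, 1048 genes were called higher and 179 lower where TMM gave 665 and 438, and 9 ISGs were called higher and 0 lower. In bulk RNA, a larger share of responding cells and more RNA per cell cannot be told apart.

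These calls depended on single libraries, as did the calls over all genes. Without Meis1-OE library B, without Meis1-OE library C or without YFP-CTRL library B, 0 ISGs were called by edgeR. In the same fits, 115, 126 and 204 genes of the whole table (0.701%, 0.766% and 1.24%) were called higher. For a list of this size, 0 calls is near those shares. At an unadjusted p under 0.05, 15, 18 and 15 ISGs were higher. The share of all genes at that threshold was not computed for these fits, so these 3 numbers have no background to be read against. Without Meis1-OE library A, 4 ISGs were called higher, namely Oas2, Lgals3bp, Mx1 and Stat2, against 329 of all genes (2.02%). Without YFP-CTRL library A, 19 ISGs were called higher, against 610 of all genes (3.73%). Without YFP-CTRL library C, 15 were called higher and 3 (Oasl1, Adar and Trim25) lower, where calls over all genes also rose, to 2717 higher (16.5%) and 2498 lower. The sizes moved less than the calls. Over the 6 fits that leave out 1 library, the median log2 fold change of the ISGs ran from 0.75 to 1.26, and that of Dhx58 from 1.51 to 2.05 and that of Stat2 from 0.89 to 1.14.

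**Figure D1:**
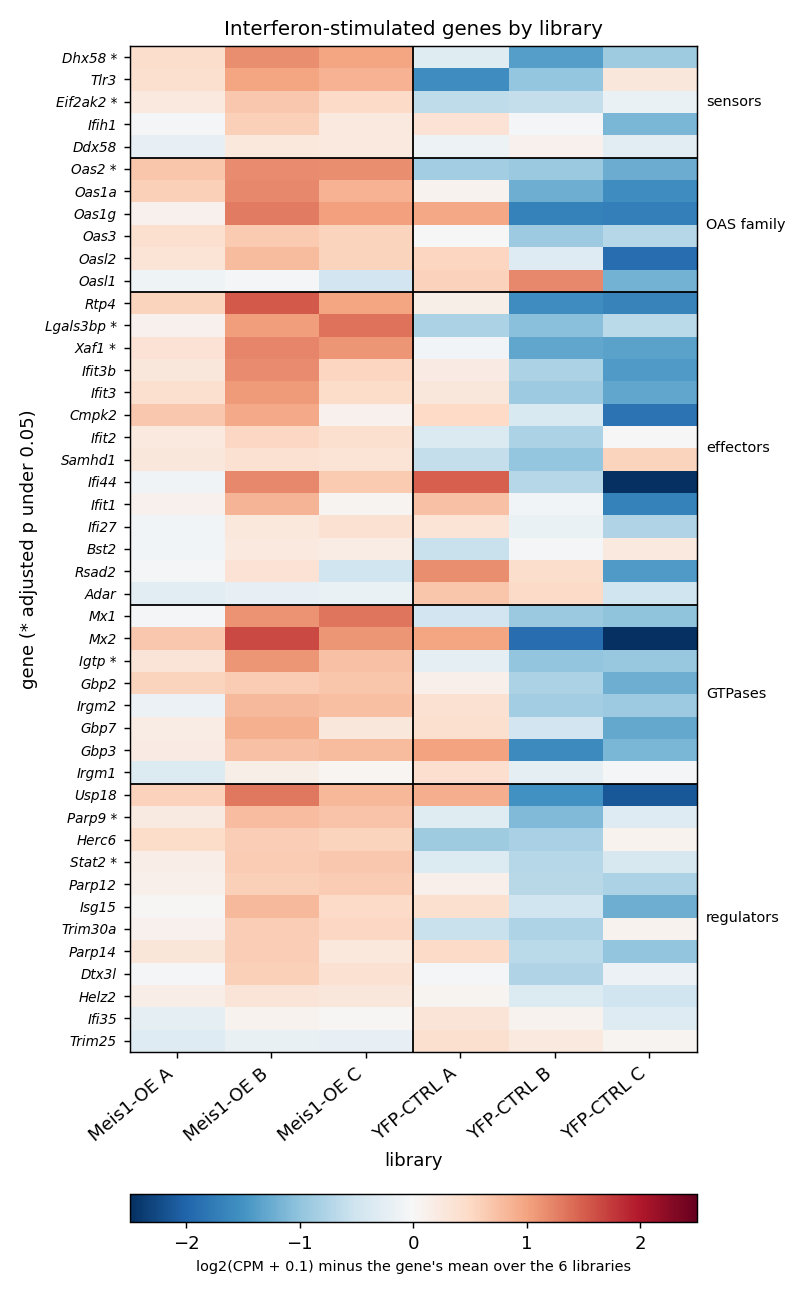
Level of each of the 45 tested ISGs (rows, grouped by role and ordered by fold change) in each of the 6 libraries (columns), as log2(CPM + 0.1) minus the gene's mean, with red above and blue below that mean, colours saturated at the ends of the scale, and an asterisk for an adjusted p under 0.05 from edgeR. Meis1-OE libraries B and C are mostly red, YFP-CTRL libraries B and C mostly blue, and YFP-CTRL library A is red for many genes, among them Mx2, Ifi44, Gbp3, Usp18 and Oas1g.

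The sensors are proteins that recognise viral nucleic acid, and 2 of the 5 tested were higher in Meis1-OE EC. Dhx58 (LGP2), a helicase that tunes signalling by the other RNA helicases, had 197, 325 and 295 counts in A, B and C of Meis1-OE and 86, 47 and 76 in A, B and C of YFP-CTRL, the order kept for all counts that follow. Its level was 5.95 ± 1.47 CPM against 1.79 ± 0.697 CPM (SD, n = 3 each), which is a log2 fold change of 1.74 (SE 0.33 and adjusted p = 0.0285, edgeR). All Meis1-OE libraries lay above all YFP-CTRL libraries. Eif2ak2 (PKR), the kinase that stops translation on double-stranded RNA, had 1700, 2290 and 2023 counts against 689, 853 and 1273. This was 43.8 ± 6.63 CPM against 23.1 ± 4.30 CPM (SD, n = 3 each), with a log2 fold change of 0.92 (SE 0.18 and adjusted p = 0.0287, edgeR). The groups did not overlap, and the RefSeq spans of Dhx58 and Eif2ak2 overlap predicted genes, which counting without strand would not separate.
Tlr3, the endosomal receptor of double-stranded RNA, had 574, 859 and 806 counts against 108, 196 and 525. Its groups did not overlap, but YFP-CTRL library C came close to Meis1-OE library A, and the log2 fold change of 1.32 had an edgeR adjusted p of 0.122 (95% interval 0.27 to 2.37). Ddx58 (RIG-I), the sensor of uncapped viral RNA, had 1818, 2472 and 2491 counts against 1410, 1994 and 1724. The groups overlapped, and the interval of the log2 fold change of 0.21 ran from -0.18 to 0.59. Ifih1 (MDA5), which senses long double-stranded RNA, had a log2 fold change of 0.45 (adjusted p = 0.494 from edgeR). Zbp1, a sensor of left-handed nucleic acid, had 3, 7 and 4 counts against 7, 2 and 2, and was too low to test.

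Of the OAS family, most of whose members make the messenger that activates RNase L, 1 of 6 was higher. Oas2 had 13, 20 and 20 counts in the Meis1-OE libraries and 1, 1 and 0 in the YFP-CTRL libraries. The ratio of 53 to 2 counts, corrected for library size, was 23.2 (95% interval of 6.11 to 196, for counting error only), and the adjusted p was 0.0128 from edgeR. Every Meis1-OE library lay above the floor and every YFP-CTRL library at or under it.
Oas1a had 173, 263 and 213 counts against 89, 41 and 35. Its groups did not overlap, and its log2 fold change of 1.71 had an edgeR adjusted p of 0.0703. Oas1a and its near copy Oas1g (log2 fold change 1.5, adjusted p = 0.395 from edgeR) may share reads, so the split between them is uncertain. Oas3, the largest enzyme of the family, had a log2 fold change of 1.14 (adjusted p = 0.0853 from edgeR) and no overlap between groups.
The Oasl genes are the synthetase-like members of the family. Oasl2 had 84, 116 and 99 counts against 72, 46 and 14, and its log2 fold change of 0.90 had an interval of -0.46 to 2.25. Oasl1, an inhibitor of Irf7 translation, had 96, 101 and 74 counts against 116, 219 and 43, with the YFP-CTRL libraries on both sides of the Meis1-OE libraries. Its log2 fold change was -0.71 (95% interval -2.00 to 0.57).

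**Figure D2:**
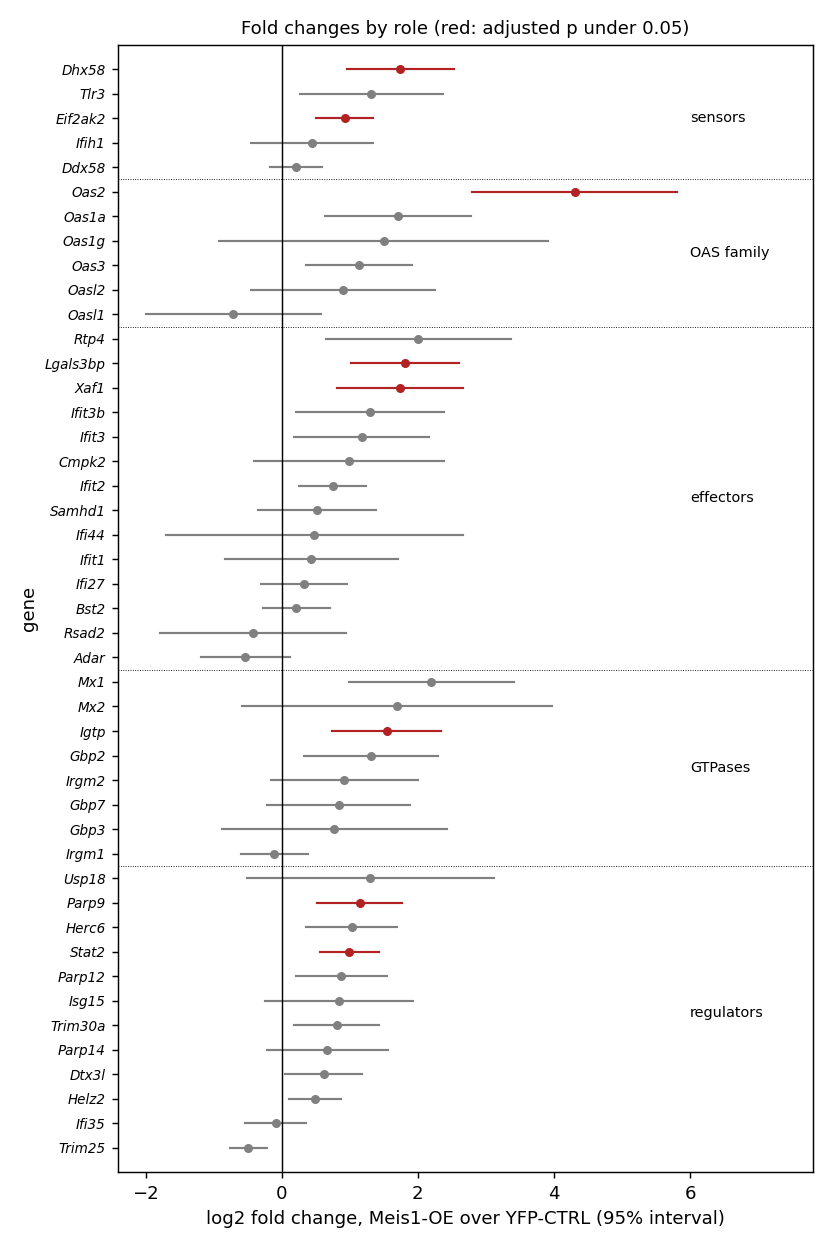
Log2 fold change of Meis1-OE over YFP-CTRL (horizontal axis) for the 45 tested ISGs, grouped by role, with points for the estimate and lines for its 95% interval from edgeR, and red for an adjusted p under 0.05. Estimates for 39 genes lie to the right of 0, and the 8 red genes are spread over all 5 groups.

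Of the 14 effectors, 2 were higher. Xaf1, a protein that promotes cell death and counters XIAP, had 936, 1692 and 1594 counts against 513, 261 and 283, or 30.7 ± 8.99 CPM against 9.24 ± 5.08 CPM (SD, n = 3 each). The log2 fold change was 1.74 (SE 0.40 and adjusted p = 0.0465, edgeR), and the groups did not overlap. Lgals3bp, a secreted galectin-binding glycoprotein, had 167, 323 and 412 counts against 65, 65 and 95, or 6.56 ± 2.67 CPM against 1.87 ± 0.252 CPM (SD, n = 3 each). The YFP-CTRL libraries were close together and the Meis1-OE libraries spread, with a log2 fold change of 1.81 (SE 0.34 and adjusted p = 0.0265, edgeR).
The effectors of highest level showed smaller differences. Bst2 (tetherin), which holds budding virions at the cell surface, had 2117, 2625 and 2586 counts against 1120, 1936 and 2624, with YFP-CTRL libraries B and C among the Meis1-OE libraries. Its log2 fold change was 0.21 (95% interval -0.28 to 0.70). Ifi27, a small membrane protein of mitochondria and nucleus, had 1349, 1685 and 1860 counts against 1340, 1123 and 838 and a log2 fold change of 0.32 (95% interval -0.31 to 0.96). Adar, which edits adenosine to inosine in double-stranded RNA, had 2248, 2358 and 2467 counts against 3323, 3424 and 1929. The groups overlapped through YFP-CTRL library C, and the log2 fold change was -0.54 (95% interval -1.19 to 0.12).
The 4 Ifit genes, whose products bind viral RNA that lacks host cap marks, had log2 fold changes of 0.44 (Ifit1), 0.75 (Ifit2), 1.17 (Ifit3) and 1.30 (Ifit3b), for which edgeR gave an adjusted p of 0.653, 0.0784, 0.139 and 0.134. The groups did not overlap for Ifit2, Ifit3 and Ifit3b. Ifit3 and Ifit3b are near copies, so their reads may be shared. Rtp4, a chaperone of membrane receptors, had the largest log2 fold change of the effectors at 2.01, with an edgeR adjusted p of 0.0833 and no overlap between groups. Rsad2 (viperin) and its neighbour Cmpk2, which act together to make a nucleotide that stops viral polymerases, had log2 fold changes of -0.42 and 0.99 (adjusted p = 0.685 and 0.332 from edgeR). Samhd1, which depletes nucleotides needed by retroviruses, and Ifi44 had log2 fold changes of 0.51 and 0.48 (adjusted p = 0.413 and 0.786 from edgeR).

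Of the 8 interferon-inducible GTPases tested, which attack membranes of pathogen vacuoles or viral capsids, 1 was higher. Igtp (Irgm3), an immunity-related GTPase of the endoplasmic reticulum, had 87, 152 and 119 counts against 43, 29 and 33, or 2.61 ± 0.723 CPM against 0.901 ± 0.316 CPM (SD, n = 3 each). Its log2 fold change was 1.54 (SE 0.34 and adjusted p = 0.0427, edgeR), with no overlap between groups. Irgm1, a regulator of the same family, had 686, 961 and 908 counts against 866, 656 and 847. The groups overlapped, and its log2 fold change was -0.11 (95% interval -0.61 to 0.39) with TMM and 0.017 with library totals. Irgm2 had 71, 142 and 138 counts against 78, 37 and 40, and a log2 fold change of 0.92 (adjusted p = 0.252 from edgeR). Iigp1, an effector of the family, had 7, 13 and 17 counts against 3, 0 and 2 and was too low to test, although its groups did not overlap.
Mx1 and Mx2, annotated by RefSeq as transcribed pseudogenes in this reference strain, had log2 fold changes of 2.20 and 1.70. Mx1 had 16, 42 and 50 counts against 8, 6 and 6 with no overlap, and an edgeR adjusted p of 0.0504. It was called with library totals, without a filter on low counts and by DESeq2. Mx2 had 63, 128 and 88 counts against 59, 6 and 3, so YFP-CTRL library A stood with the Meis1-OE libraries. The guanylate-binding proteins of the list were Gbp2, Gbp3 and Gbp7, with log2 fold changes of 1.31, 0.77 and 0.83 (adjusted p = 0.108, 0.525 and 0.282 from edgeR). Gbp7 had 114, 186 and 124 counts against 98, 62 and 38. On the CPM scale the groups overlapped for Gbp3 and Gbp7, through YFP-CTRL library A, and did not for Gbp2.

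Of 12 regulators, 2 were higher. Stat2, the subunit of the ISRE-binding complex that carries its activating domain, had 757, 1046 and 1103 counts against 397, 366 and 509. This was 21.1 ± 3.99 CPM against 10.6 ± 1.45 CPM (SD, n = 3 each), with a log2 fold change of 0.99 (SE 0.19 and adjusted p = 0.0266, edgeR). Parp9, which works with the ubiquitin ligase Dtx3l, had 384, 556 and 547 counts against 196, 133 and 258, or 10.8 ± 2.11 CPM against 4.90 ± 1.42 CPM (SD, n = 3 each), with a log2 fold change of 1.14 (SE 0.27 and adjusted p = 0.0488, edgeR). The groups did not overlap for either gene. Dtx3l lies next to Parp9 and overlaps its span, and its log2 fold change was 0.61 (adjusted p = 0.165 from edgeR). The span of Stat2 overlaps that of Apof.
Helz2, a helicase and nuclear receptor coactivator, had 4424, 4905 and 4882 counts against 3098, 2790 and 2770. Its groups did not overlap, and the log2 fold change of 0.49 (adjusted p = 0.115 from edgeR) had an interval of 0.11 to 0.87. Trim25, the ubiquitin ligase that activates RIG-I, had 5211, 5660 and 5704 counts against 6400, 6921 and 6842, and was the only tested ISG with all Meis1-OE libraries below all YFP-CTRL libraries. Its log2 fold change was -0.49 (adjusted p = 0.0530 from edgeR), and it was called lower with DESeq2's size factors, by DESeq2 and without YFP-CTRL library C.
The ubiquitin-like modifier Isg15, its removing enzyme Usp18 and Herc6, its ligase in mouse, had log2 fold changes of 0.84, 1.30 and 1.03 (adjusted p = 0.291, 0.326 and 0.0762 from edgeR). Usp18 had 143, 241 and 174 counts against 135, 27 and 18, with YFP-CTRL library A above Meis1-OE library A on the CPM scale. Parp12, Parp14 and Trim30a had log2 fold changes of 0.87, 0.67 and 0.80 (adjusted p = 0.113, 0.306 and 0.116 from edgeR). Ifi35 had a log2 fold change of -0.09 with TMM and 0.046 with library totals.

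Across the groups, all Meis1-OE libraries lay above all YFP-CTRL libraries for 20 of the 45 tested ISGs (44.4%), against 17.2% of all genes, and below them for 1, against 15.9%. The median log2 fold change was 0.92 for the sensors, 1.32 for the OAS family, 0.63 for the effectors, 1.12 for the GTPases and 0.82 for the regulators. The differences between these groups were not tested. The remaining 24 ISGs overlapped between conditions.
The spread among YFP-CTRL libraries had a common pattern. YFP-CTRL library A had the highest CPM of its group for 35 of the 45 ISGs, library C for 8 and library B for 2, while over all 16065 genes these numbers were 5860, 6265 and 3940. The median ratio of the highest to the lowest YFP-CTRL library was 2.52 for the ISGs and 1.48 for all genes, and within Meis1-OE it was 1.53 and 1.18. Oas1g, Mx2, Usp18, Ifi44 and Gbp3, singled out after their values were seen, are examples. Oas1g had 23, 1 and 1 counts in YFP-CTRL, against 15, 40 and 33 in Meis1-OE. Ifi44 had 139, 33 and 7 counts in A, B and C of YFP-CTRL, against 60, 152 and 105 in Meis1-OE. Gbp3 had 78, 12 and 20 counts in YFP-CTRL, against 58, 85 and 90.
For Ifi44 and Gbp3, YFP-CTRL library A lay above every Meis1-OE library on the CPM scale. Eif2ak2, Tlr3, Bst2 and Herc6 had the opposite order, with YFP-CTRL library C highest and A lowest, the order of 8.89% of the ISGs and 25.6% of all genes. The order with A highest and C lowest was that of 27 ISGs (60%), against 21.3% of all genes.
Among the 15 proliferation genes, the mean log2(CPM + 1) was 6.44, 6.43 and 6.48 in A, B and C of Meis1-OE, and 4.14, 5.12 and 6.4 in A, B and C of YFP-CTRL. The YFP-CTRL libraries differed among themselves in proliferation genes as well, with A lowest. With this mean as a covariate, edgeR called 19 ISGs higher and 0 lower, against 360 of all genes (2.24%) higher and 292 lower. Of the 8 ISGs called without it, only Oas2 and Xaf1 were among the 19. The log2 fold changes of the other 6 were then 2.05 for Dhx58, 0.68 for Eif2ak2, 1.72 for Lgals3bp, 1.99 for Igtp, 1.01 for Stat2 and 1.12 for Parp9, with edgeR adjusted p-values of 0.0506 to 0.143. The median log2 fold change of the ISGs was then 1.61. The mean hardly differed among the Meis1-OE libraries, so this adjustment rests almost only on the 3 YFP-CTRL libraries. Proliferation and other differences among those 3 libraries cannot be told apart in this fit.

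**Figure D3:**
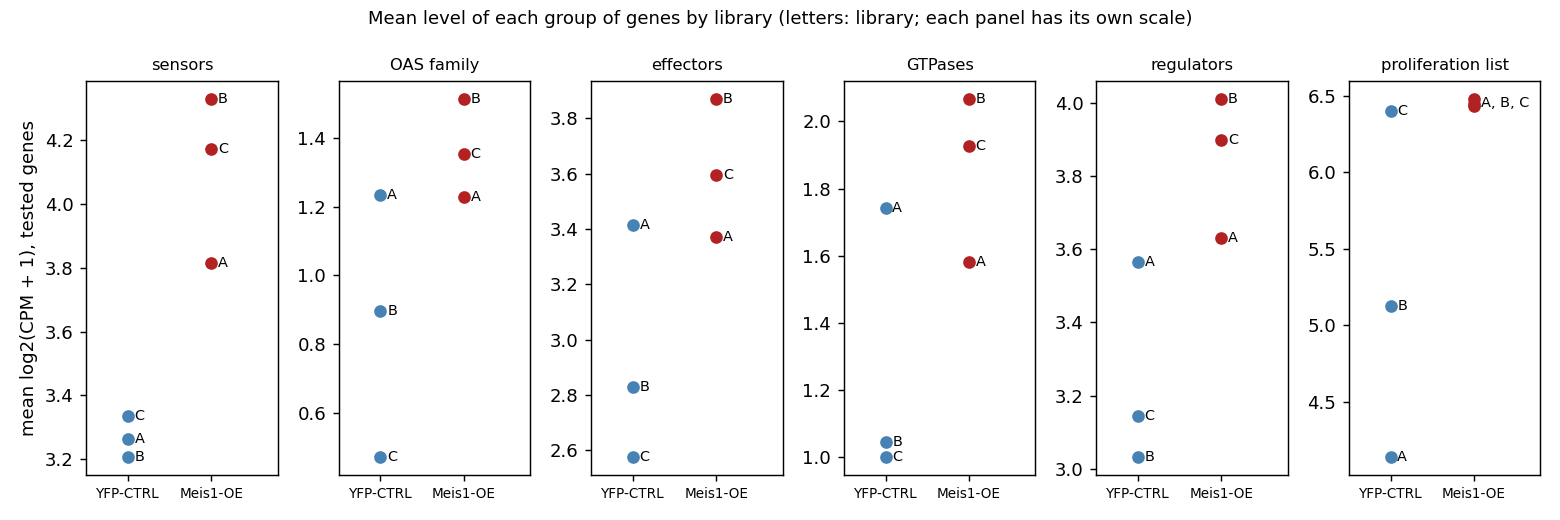
Mean log2(CPM + 1) of the tested genes of each ISG group and of the 15 proliferation genes (vertical axes, each panel with its own scale) in the YFP-CTRL (blue) and Meis1-OE (red) libraries, with the library letter beside each point. The sensors, at 3.21 to 3.33 in YFP-CTRL and 3.81 to 4.33 in Meis1-OE, and the regulators, at 3.03 to 3.56 and 3.63 to 4.01, separate the conditions, while YFP-CTRL library A reaches Meis1-OE library A for the OAS family, the effectors and the GTPases, and is the lowest of all for the proliferation genes.

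The genes upstream of the ISGs were examined next. Of 17 interferon genes, 16 never had more than 3 counts in a library, and 13 of them were at 0 in all 6, which at this depth places their RNA at or under the floor. The exception was Ifne, an interferon of epithelia, with 26, 19 and 29 counts against 9, 10 and 23 (log2 fold change 0.65, adjusted p = 0.329 from edgeR). None of the 5 interferon receptor genes tested was called by edgeR, where 0 were also called by DESeq2 and 0 had an unadjusted p under 0.05. For 5 genes, 0 calls is near the edgeR shares over all genes, 4.14% higher and 2.73% lower. Ifnar1, with 3697, 4343 and 4730 counts against 2298, 4443 and 3593, had a log2 fold change of 0.12 (95% interval -0.32 to 0.57). Ifnar2 had a log2 fold change of 0.03 (-0.24 to 0.30), Ifngr1 of -0.10 (-0.41 to 0.21), Ifngr2 of 0.16 (-0.18 to 0.51) and Il10rb of 0.25 (-0.17 to 0.67). Ifnlr1 had at most 1 count in any library.
Of the signalling genes, Jak2 was lower in Meis1-OE EC. Jak2, a kinase of the interferon gamma receptor, had 1020, 1158 and 1191 counts against 1321, 1899 and 1474, and its log2 fold change was -0.68 (SE 0.16 and adjusted p = 0.0483, edgeR). The groups did not overlap. The call was lost on leaving out any library but YFP-CTRL C (edgeR adjusted p of up to 0.205), and in 5 of the 7 other settings, namely library totals, no filter, a minimum of 10 counts, the proliferation covariate and the replicate block.
Irf9, the DNA-binding subunit of the ISRE-binding complex, had 470, 557 and 554 counts against 391, 228 and 190 and a log2 fold change of 0.70 (adjusted p = 0.257 from edgeR). Tyk2, Jak1, Pias1 and Ptpn11 had log2 fold changes of 0.48, 0.07, 0.20 and -0.09 (adjusted p = 0.0679, 0.750, 0.308 and 0.663 from edgeR). The feedback inhibitors Socs1 and Socs3 had log2 fold changes of 0.87 and -0.63 (adjusted p = 0.0725 and 0.362 from edgeR), and Ptpn6 of 0.88 (adjusted p = 0.314 from edgeR). Of 11 genes that link sensors to interferon production, 0 were called by edgeR, 3 were higher and 1 lower at an unadjusted p under 0.05, and DESeq2 called 1 higher. Over all genes, edgeR called 4.14% higher and 2.73% lower, and DESeq2 called 6.21% higher. At an unadjusted p under 0.05, 2050 of all 16065 genes were higher and 2155 lower. For 11 genes, 0 calls by edgeR and 1 by DESeq2 are near those shares. The values for Irf7, singled out after they were seen, were 251, 499 and 420 counts against 172, 49 and 45.

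Outside the 47, 7 of the 51 tested ISGs of a second list of 63 genes were called higher by edgeR and 0 lower. Over all genes, 4.14% were called higher and 2.73% lower. At an unadjusted p under 0.05, 22 of the list were higher and 0 lower, as were 2050 and 2155 of all 16065 genes. DESeq2 called 11 of the list higher and 0 lower, against 6.21% of all its genes higher. The median log2 fold change was 0.42 over the list and 0.01 over all genes. Among the 7 called, the 6 of largest change were Sp100 (2.30), Apol9b (2.09), Sp110 (1.84), Pml (1.61), Ifi205 (1.61) and Sp140 (1.10), all log2 fold changes. Sp100, Sp110 and Sp140 are related chromatin readers, and Sp100 and Pml are components of nuclear bodies. Apol9b and Ifi205 belong to families of near copies, so their counts are uncertain. Sp100 had 180, 247 and 201 counts against 33, 28 and 51 (adjusted p = 0.00632 from edgeR). Sp100 and Sp110 were called in all 6 fits that leave out 1 library, while Ifi205 was called in 2 of the 6 and Pml, Apol9b and Sp140 in 1 each.

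The Gbp genes lie in clusters on 2 chromosomes, and genes beyond Gbp2, Gbp3 and Gbp7 were singled out here after their values were seen. Of 10 further interferon-inducible GTPases tested, 5 were higher and 0 lower by edgeR, 6 and 1 at an unadjusted p under 0.05, and 6 and 1 by DESeq2. Over all genes, edgeR called 4.14% higher and 2.73% lower, and DESeq2 called 6.21% higher. At an unadjusted p under 0.05, 2050 of all 16065 genes were higher and 2155 lower. All 5 GTPase genes called higher by edgeR were Gbp genes of chromosome 5. Ifi47, another immunity-related GTPase, had 164, 152 and 113 counts against 129, 280 and 317, with all Meis1-OE libraries below all YFP-CTRL libraries on the CPM scale and a log2 fold change of -0.91 (adjusted p = 0.101 from edgeR). The cluster on chromosome 5 (bases 105012513 to 105346476, GRCm38) holds Gbp8, Gbp9, Gbp4, Gbp10, Gbp6 and Gbp11, and 5 of these 6 were higher, Gbp9 being the exception. The cluster on chromosome 3 (bases 142496934 to 142638008) holds Gbp5, Gbp7, Gbp3, Gbp2b and Gbp2. By edgeR, 0 of these 5 were called, which for 5 genes is near the all-gene share of 4.14% higher. Of the 5, 1 (Gbp2) was higher at an unadjusted p under 0.05 and by DESeq2. Log2 fold changes ran from -0.11 to 1.31 on chromosome 3. The difference between the clusters was not tested.
Gbp4 had 1555, 4611 and 4692 counts against 118, 188 and 241, a log2 fold change of 4.14 (SE 0.45 and adjusted p = 0.00520, edgeR). Gbp6 had 311, 1144 and 1309 counts against 19, 6 and 15, a log2 fold change of 5.88 (SE 0.70 and adjusted p = 0.00708, edgeR). In both, Meis1-OE library A was the lowest of its group and still far above every YFP-CTRL library. Gbp10 had 74, 257 and 270 counts against 1, 0 and 0 (adjusted p = 0.00520 from edgeR), and the ratio of 601 to 1 counts was 526, with a counting interval of 94 to 20800. Gbp11, annotated by RefSeq as a transcribed pseudogene, had 21, 41 and 53 counts against 0 in every YFP-CTRL library (adjusted p = 0.0142 from edgeR). Its mean over the Meis1-OE libraries, 0.836 CPM, was at least 11-fold higher than in YFP-CTRL, taking for the latter the mean floor of 3 counts per library. Gbp8 had 30, 43 and 36 counts against 8, 8 and 12, a log2 fold change of 1.76 (adjusted p = 0.0225 from edgeR).
Gbp4, Gbp6 and Gbp10 were called in all 6 fits that leave out 1 library. Gbp8 lost its call without any of the Meis1-OE libraries or without YFP-CTRL library B, and Gbp11 without Meis1-OE library B or C or YFP-CTRL library B. Gbp9 had 3162, 6622 and 7340 counts against 764, 1928 and 3108, which separated by a narrow margin (log2 fold change 1.43, adjusted p = 0.10 from edgeR). Gbp genes of 1 cluster are close copies, and reads may be shared among them, in particular between Gbp6 and Gbp10.

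**Figure D4:**
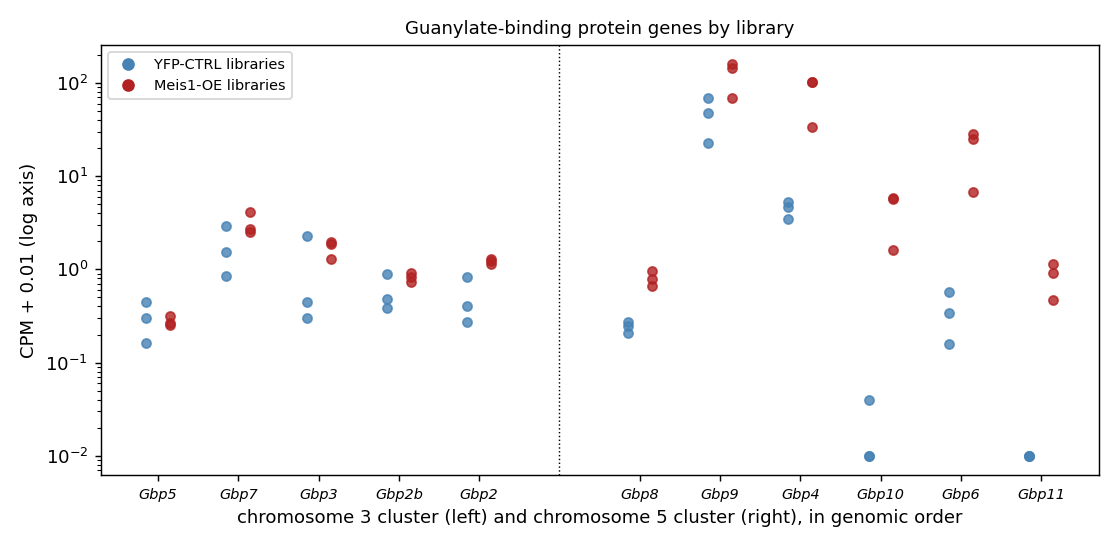
CPM + 0.01 on a log axis (vertical) of the Gbp genes of the chromosome 3 cluster (left) and the chromosome 5 cluster (right), in genomic order, with a point for each YFP-CTRL (blue) and Meis1-OE (red) library. Blue and red points overlap for 4 of the 5 genes on the left, all but Gbp2, and red points stand above blue for all 6 genes on the right, with Gbp10 and Gbp11 at or near 0 in YFP-CTRL.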

How the data were processed

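Bulk ribodepleted RNA-seq of 6 libraries was used, 3 of Meis1-OE EC and 3 of YFP-CTRL EC. The authors deposited estimated counts per gene, without normalization, which were rounded to whole numbers here. The submitters' processing notes name build mm10. The aligner, counting tool, annotation and use of strand are not given in the sources used here, and 18 of the 47 ISGs overlap the span of another RefSeq gene. Conditions came from the sample labels, which number the replicates while the columns carry letters, so libraries are named by letter and were not paired. The study describes the replicates as independent transductions. The number of donor animals is not stated, so p-values measure the spread between transduced cultures and not between animals.

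Counts were tested in R 4.3.3 with edgeR 4.0.16 (TMM, the quasi-likelihood test, and filterByExpr, which left 16065 genes), with Benjamini-Hochberg adjustment over all genes tested and a threshold of 0.05. The study names DESeq2, which was run as an alternative (version 1.42.0). Standard errors were derived from the F statistic, and the test was checked on simulated data. There, 140 genes were called, 7 of them falsely, and 90.5% of 4-fold changes but only 40.9% of 2-fold changes were recovered. A gene that was not called may therefore still differ about 2-fold, and an ISG by more. The median ratio of the highest to the lowest YFP-CTRL library was 2.52 for the ISGs and 1.48 for all genes. Mx1 at 4.59-fold and Rtp4 at 4.02-fold, for example, were not called by edgeR. The smallest two-sided exact permutation p for 3 against 3 libraries is 0.1, so no permutation test of a single gene was run. Counting intervals and floors treat reads as independent, which reads lacking molecular identifiers are not, so they cover counting error only. Levels were not compared between genes, since no lengths were used. Plots were made in Python 3.11.15 with matplotlib 3.10.9.

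By rule, every ISG is named, counts per library are given for each ISG past the threshold and for the 3 of highest mean CPM in each group, and up to 6 called genes are named for each further list. Counts of other genes were added after their values were seen. The 47 ISGs, the groups and the further lists were chosen with earlier results of these data known. The alternatives tried were size factors of DESeq2, totals in place of TMM, no filter on low counts, a minimum of 10 counts in every library, DESeq2 itself, the mean of the proliferation genes as a covariate, the column letter as a replicate block, and each library left out. Some genes of the further lists are not reported here.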

Additional observations from a re-analysis of the deposited data

How the results depend on the processing

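Over the 6 fits that leave out 1 library, between 115 and 2717 genes were higher and between 16 and 2498 lower, the ISGs called ranged from 0 to 19 higher and 0 to 3 lower, and their median log2 fold change from 0.75 to 1.26. DESeq2 called 1128 genes higher and 1115 lower, of them 20 ISGs higher and 1 (Trim25) lower. Library totals gave 1048 genes higher and 179 lower. DESeq2's size factors in edgeR called 1 ISG (Trim25) lower. A minimum of 10 counts in every library left 5 ISGs higher of 40 tested, without Oas2, Parp9 and Xaf1, against 473 of all genes (3.29%). With the proliferation covariate, 360 genes (2.24%) and 19 ISGs were higher, and the median of the ISGs was 1.61, in a fit whose adjustment rests almost only on the YFP-CTRL libraries. With the column letter as a replicate block, 544 genes (3.39%) were higher and 189 lower, and 3 of the 45 ISGs tested were higher (Eif2ak2, Oas2 and Lgals3bp). However, the letters were not shown to pair the libraries, since deviations from the group means correlated at 0.245, 0.190 and 0.0809 for A, B and C.

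The direction reversed for genes that were not called. With the proliferation covariate, log2 fold changes became 0.48 for Oasl1, 1.36 for Rsad2, -0.18 for Bst2, -0.059 for Samhd1, 0.21 for Adar, 0.13 for Irgm1, 0.29 for Ifi35, -0.085 for Ifngr2, -0.023 for Jak1, 0.11 for Socs3 and 0.0063 for Ptpn11. With library totals they became 0.017 for Irgm1, 0.046 for Ifi35, 0.039 for Ifngr1 and 0.057 for Ptpn11. Leaving out single libraries moved Ifit1 between -0.0017 and 1.04, Rsad2 between -0.88 and 0.17, Ifi44 between -0.075 and 2.25, Irgm1 between -0.24 and 0.084, Ifi35 between -0.26 and 0.051, Ifnar1 between -0.036 and 0.35, Ifnar2 between -0.035 and 0.092, and Jak1 between -0.028 and 0.16. The causes were not tested. Over the 7 other settings and 72 genes, 410 of 492 values kept direction and side of the threshold, 28 lost the call, 39 gained it and 15 reversed. At this depth, Zbp1, Iigp1 and 16 interferon genes were too low to test.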
